A study of Mus musculus with 2 samples.

Results

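Of the 7610 chromosome boundaries called in these cells, 746 (9.80%, exact 95% binomial interval 9.14 to 10.5%) held the transcription start site (TSS) of at least 1 protein-coding gene inside their own 5 kb bin. They were chosen by position alone. A TSS was the 5′ end of a protein-coding gene record of GENCODE release M21 on the mouse build GRCm38, and boundary strength played no part in the choice. The 746 bins held 839 TSSs. The study used adult mice of both sexes, strain not specified, carrying a conditional Ldb1 knockout driven by OMP-Cre, and isolated their mature olfactory neurons (mOSNs) from nasal epithelium by FACS. Omp is a gene of mature olfactory neurons, so the deletion follows the onset of its promoter and earlier cells of the lineage keep Ldb1. In situ Hi-C, which counts DNA pieces joined because they lay close together in the nucleus, was run on 2 biological replicates of 1000000 cells each, fixed in 1% formaldehyde and cut with DpnII. The boundary list is a single list for 1 group, made from both replicates combined, and no control library was analysed here. Values therefore carry no replicate error, no test over samples exists, and nothing below compares deleted with normal neurons. Intervals are exact 95% binomial intervals for shares and 95% order-statistic intervals for medians. They cover counting error along 1 genome only and treat bins as independent, which neighbours are not.

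A boundary is a position that few contacts cross, so that the chromosome on either side folds more with itself than with its neighbour. Cohesin extrudes loops of chromatin and is halted by CTCF bound in one orientation. Active promoters are also known to lie at boundaries, with or without CTCF nearby. Many promoters of broadly expressed genes lie in CpG islands, stretches rich in the dinucleotide CG, and some serve a pair of genes that are transcribed away from each other. Olfactory receptor genes, in contrast, have CpG-poor promoters, and each mature neuron expresses a single one of them.

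The divergent promoters show what the boundary bins held at base resolution. The sequence is that of RefSeq. The 5 strongest divergent pairs with TSSs at most 500 bases apart and with both gene starts placed in the same bin by RefSeq are printed with the ribosomal protein pair Rpl9 and Lias, on the forward strand of GRCm38, from 10 bases inside the left gene to 10 bases inside the right gene. Capitals mark matches, on either strand, to GGGCGG (the GC box of SP and KLF factors), CCAAT (NF-Y), CCGGAAG (the ETS core), AANATGGCG (YY1), CACGTG (the E-box), TGACGTCA (the cAMP response element), TATAAA (the TATA box), and to the longer NRF1 and ZNF143 motifs. A match describes letters and not a bound factor.
Mepce and Zcwpw1, chr5:137787646-137787807: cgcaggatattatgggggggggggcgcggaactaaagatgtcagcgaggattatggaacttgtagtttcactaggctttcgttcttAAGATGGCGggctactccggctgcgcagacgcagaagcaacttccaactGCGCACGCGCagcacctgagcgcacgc
Cetn2 and Nsdhl, chrX:72918402-72918566: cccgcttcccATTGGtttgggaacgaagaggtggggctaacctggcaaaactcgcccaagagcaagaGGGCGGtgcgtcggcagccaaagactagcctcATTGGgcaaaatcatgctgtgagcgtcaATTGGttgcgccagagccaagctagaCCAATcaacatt
Mfap1a and Wdr76, chr2:121506656-121506732: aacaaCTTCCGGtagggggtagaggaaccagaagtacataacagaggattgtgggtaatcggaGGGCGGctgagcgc
Trip13 and Brd9, chr13:73937775-73937820: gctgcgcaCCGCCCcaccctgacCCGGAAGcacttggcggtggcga
Nop14 and Grk4, chr5:34660139-34660388: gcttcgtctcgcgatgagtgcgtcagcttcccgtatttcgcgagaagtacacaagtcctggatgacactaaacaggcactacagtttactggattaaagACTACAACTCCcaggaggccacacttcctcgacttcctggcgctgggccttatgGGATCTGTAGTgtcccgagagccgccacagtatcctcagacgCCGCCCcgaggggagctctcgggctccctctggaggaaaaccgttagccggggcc
Rpl9 and Lias, chr5:65391435-65391506: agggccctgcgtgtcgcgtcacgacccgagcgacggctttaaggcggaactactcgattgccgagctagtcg
Boundary strength was 2.05 for Mepce and Zcwpw1, 1.38 for Cetn2 and Nsdhl, 1.26 for Mfap1a and Wdr76, 1.24 for Trip13 and Brd9, 1.20 for Nop14 and Grk4, and 1.03 for Rpl9 and Lias. These stretches held between 4 and 17 CG dinucleotides each. The stretch of Mepce, the capping enzyme of 7SK RNA, and Zcwpw1, a histone reader of meiosis, held a YY1 and an NRF1 match. That of Cetn2 and Nsdhl, which encode a centrin and a sterol dehydrogenase, held 4 NF-Y matches and 1 GC box. Those of Mfap1a with Wdr76 and of Trip13 with Brd9 each held an ETS core and a GC box. The stretch of Nop14, a ribosome assembly factor, and Grk4, a receptor kinase, held 2 ZNF143 matches and 1 GC box. None of the motifs lay between Rpl9 and Lias.

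For contrast, the strongest receptor promoter in a boundary bin belonged to Olfr544, a class I olfactory receptor gene on chromosome 7 (boundary strength 2.62). It is printed on the reverse strand, from 200 bases before the TSS through the first 10 transcribed bases.
Olfr544, chr7:102488304-102488513: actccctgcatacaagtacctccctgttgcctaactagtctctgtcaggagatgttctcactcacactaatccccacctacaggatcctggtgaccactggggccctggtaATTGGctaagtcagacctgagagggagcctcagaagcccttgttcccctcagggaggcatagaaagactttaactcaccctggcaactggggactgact
It held 0 CG dinucleotides and 1 NF-Y match.

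Boundary strength is the authors' score per bin, and in their list every bin of the strong class scores above 0.5 and every weak one below it. Among the 746 bins 477 were strong and 269 weak, which is 63.9% strong (60.4 to 67.4%), against 52.9% of all 7610 boundaries. Their median strength was 0.659 (interval 0.621 to 0.700), with an interquartile range of 0.379 to 1.01 and extremes of 0.2003 and 3.05. The 6864 boundaries without a TSS in the bin had a median of 0.521 (0.506 to 0.538), and 51.6% of them were strong. Bins near a TSS had strengths much like those that held one. The 1623 boundaries whose nearest TSS lay outside the bin but within 10 kb had a median of 0.669 (0.634 to 0.706) and were strong in 63.4% (61.0 to 65.7%). The 5241 boundaries with no TSS within 10 kb had a median of 0.475 (0.460 to 0.494). On chromosome X, 25 bins held a TSS and 9 of them were strong (interval 17.97 to 57.48%), against 64.9% strong among the 721 on autosomes. Over all boundaries the strong shares were 28.8% of 424 on chromosome X and 54.3% of 7186 on autosomes, a gap of the same direction with or without a TSS in the bin. No test was run on any of these differences, because bins of 1 pooled list are not replicates.

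The share of boundaries with a TSS in the bin was greatest below the very top of the strength scale. By decile of strength, it was 5.65% (4.12 to 7.54%) in the weakest, 8.80% in the fifth and 13.9% (11.5 to 16.6%) in the eighth, which spans strengths of 0.843 to 1.06. It was 12.5% in the ninth and 9.20% (7.24 to 11.5%) in the strongest, where strengths ran from 1.41 to 4.13. The share with a CTCF consensus within 10 kb was 12.2% in the weakest decile, 33.8% in the seventh and 33.9% in the strongest.

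**Figure D1:**
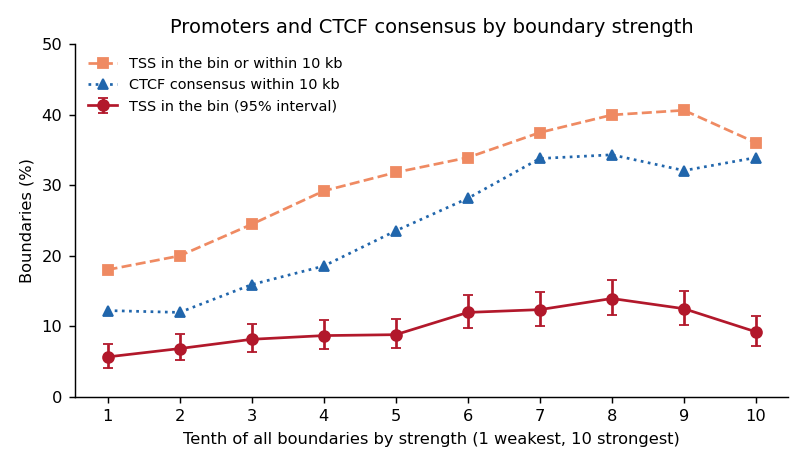
Share of boundaries with a protein-coding TSS in the bin (circles, with exact 95% binomial intervals), with a TSS in the bin or within 10 kb (squares) and with a CTCF consensus within 10 kb (triangles), by decile of boundary strength (761 boundaries each). The share with a TSS in the bin is 5.65% in the weakest decile, 13.9% in the eighth and 9.20% in the strongest.

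Trrap, which encodes a scaffold of histone acetyltransferase complexes, lay in the strongest (3.05; chromosome 5, 144765001 to 144770000). Yipf5, a Golgi membrane protein gene, followed at 2.82 (chromosome 18, 40215001 to 40220000). Rxylt1, a glycosyltransferase gene of dystroglycan, lay at 2.77 (chromosome 10, 122095001 to 122100000). After Olfr544 came Ankrd60 (2.62), the centrosomal gene Cep112 (2.56), the overlapping pair Pate2 and Hyls1 (2.53), a second receptor gene, Olfr279 (2.49), and Edrf1 (2.45). Of these genes, RefSeq placed the start of all but Pate2 and Olfr279 in the same bin. At the other end lay Rad18, a DNA repair gene (0.2003), Lgals8, a galectin gene (0.2010), and the divergent pair of Park7, the gene of the chaperone-like protein DJ-1, and Tnfrsf9 (0.2012). RefSeq starts neither gene of that pair in the bin. Nearest to the split of strong and weak were Ccdc25 (0.503) above it and Ncln (0.4997) below it.

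A bin was selected or not by a matter of bases at its edges. The TSSs of Ccdc28a and Fndc3a lay 2 bases inside their bins (strengths 0.942 and 0.400), and that of Prkar1b lay 1 base outside a boundary bin (strength 1.10). Within the bins the 839 TSSs were spread almost evenly over the 5 successive kilobases (165, 168, 180, 160 and 166). In the bins next to a boundary lay the TSSs of 1348 further genes, at boundaries with a median strength of 0.683. Membership thus turns on where a 5 kb grid line falls.

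Most of the bins held a single promoter. A single protein-coding TSS lay in 654 of the 746 bins (87.7%) and 2 lay in 91, while 1 bin held 3. Of the 91 pairs, 57 were divergent, with the reverse-strand TSS to the left of the forward-strand one. Another 27 were on opposite strands with overlapping 5′ ends, called overlapping head-to-head here, and 7 were tandem, with both genes on 1 strand. To read these counts, all 20112 bins of the 5 kb grid that hold a protein-coding TSS were classed in the same way. Of those grid bins 3.71% were boundaries, against 1.49% of all 511902 grid bins that are not mostly assembly gap.

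Bins with an opposite-strand pair of promoters had the larger shares of boundaries. Of divergent grid bins 57 of 810 were boundaries (7.04%, 5.37 to 9.02%), and of overlapping head-to-head bins 27 of 448 (6.03%, 4.01 to 8.65%). Of bins with a single TSS 654 of 18541 were (3.53%, 3.27 to 3.803%), and of tandem bins 7 of 246 (2.85%, 1.15 to 5.77%). For divergent pairs alone close spacing went with the larger share, with intervals that overlap. Among divergent bins with TSSs at most 1 kb apart 53 of 667 were boundaries (7.95%, 6.01 to 10.3%), and among those farther apart 4 of 143 (2.80%, 0.767 to 7.01%). Of overlapping head-to-head bins with TSSs at most 1 kb apart 24 of 391 were, a share near that of all such bins. The 7 boundary bins with an opposite-strand pair over 1 kb apart were all strong. None of the 5 grid bins with 4 or more TSSs was a boundary, and 1 of the 62 with 3 was.

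**Figure D2:**
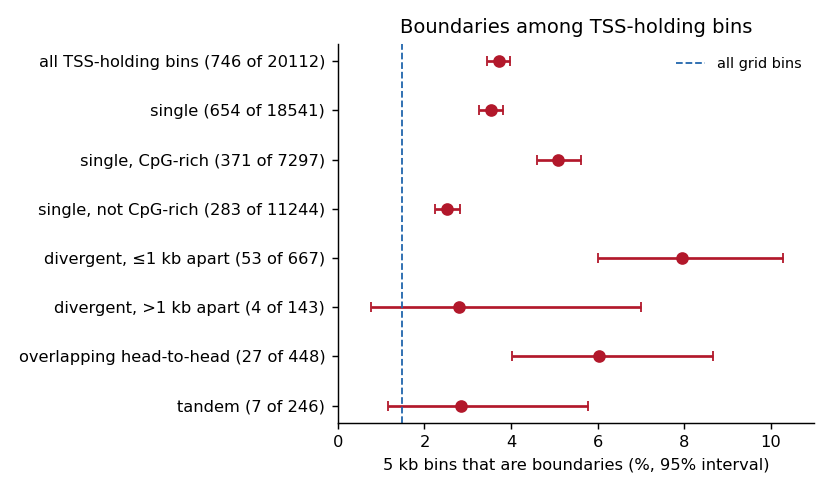
Percent of 5 kb grid bins holding a protein-coding TSS that are boundaries, by arrangement of the TSSs in the bin, with exact 95% binomial intervals and, in brackets, boundaries of grid bins. The dashed line is the 1.49% of all grid bins. Divergent pairs at most 1 kb apart are at 7.95% and single TSSs at 3.53%.

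The order of single and divergent bins was alike in gene-poor and gene-rich places. With 0 to 3 other TSSs within 100 kb, 4.13% of single bins (410 of 9921) and 7.20% of divergent bins (27 of 375) were boundaries. With 4 to 8 other TSSs the shares were 2.90% and 7.37%, and with 9 or more they were 2.67% of single bins and 9 of 150 divergent bins (interval 2.78 to 11.1%). CpG content went with both classes. Of the divergent grid bins 651 of 810 had a CpG-rich promoter, and of these 55 (8.45%, 6.43 to 10.9%) were boundaries, against 2 of the other 159 (1.26%, 0.153 to 4.47%). Among single bins the shares were 5.08% (371 of 7297) with a CpG-rich promoter and 2.52% (283 of 11244) without one. How far CpG content and arrangement each go with boundaries was not tested.

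Median strengths by arrangement had wide intervals. The median strength was 0.651 (0.611 to 0.694) for single bins, 0.693 (0.642 to 0.866) for divergent bins and 0.932 (0.562 to 1.14) for overlapping head-to-head bins. For the 7 tandem bins it was 0.579 (0.216 to 1.68). The strong class held 410 of 654 single bins (62.7%, 58.9 to 66.4%), 41 of 57 divergent bins (71.9%, 58.5 to 83.0%) and 21 of 27 overlapping ones (77.8%, 57.7 to 91.4%). These intervals overlap.

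**Figure D3:**
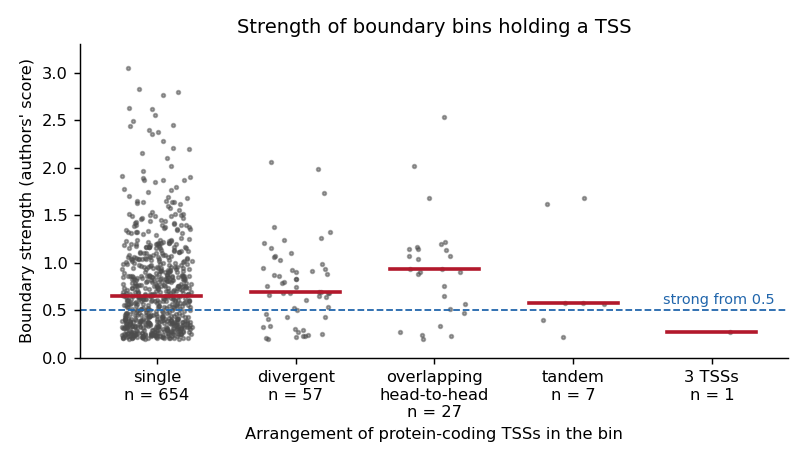
Boundary strength of each of the 746 bins (points, spread sideways for visibility) by arrangement of the protein-coding TSSs in the bin. Red lines are medians, at 0.651 for single and 0.932 for overlapping head-to-head bins, and the dashed line is the lower limit of the strong class.

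The TSSs of divergent pairs in boundary bins were a median of 131 bases apart, from 15 bases between Pld3 and 2310022A10Rik to 3350 between March9 and Cdk4, the gene of a cell cycle kinase. The strongest was that of Mepce and Zcwpw1 (2.05; TSSs 143 bases apart), followed by Lrrc28 and Ttc23 (1.98; 2142 bases apart). The third joined Polr3a, the largest subunit of RNA polymerase III, and Rps24, a ribosomal protein gene (1.73; 67 bases apart). RefSeq placed the start of Rps24 in another bin, so this pair rests on the longer GENCODE record. Others joined Xpc and Lsm3 (0.897), which serve DNA repair and RNA processing, and Npc2 and Isca2 (0.936), which serve cholesterol transport and iron-sulfur assembly. Gart and Son, of purine synthesis and splicing, lay at 0.609.

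Overlapping pairs were led by Pate2 and Hyls1 (2.53), of which Hyls1 encodes a centriole protein. They were followed by 4930579G24Rik with Etfdh, a flavoprotein dehydrogenase of mitochondria (2.02), and by Kdm5a, a histone demethylase, with Ccdc77 (1.68). Rhoa, the small GTPase, and Tcta overlapped by 31 bases at a boundary of 1.13. Tandem starts were rare and partly a matter of annotation. In 5 of the 7 tandem bins the 2 gene records overlapped, among them Gm26938 with Psmg3 (1.68) and Gm28048 with Commd1 (1.61). The other tandem bins held the histone genes Hist1h4h and Hist1h2af (0.581) and Dpm2 with Pip5kl1 (0.579). The bin with 3 TSSs held Tmem249, Fbxl6 and the riboflavin transporter gene Slc52a2 and was weak (0.274). Non-coding starts added few partners. Among single bins 36 of 654 (5.50%, 3.88 to 7.54%) had a non-coding RNA start on the opposite strand within 1 kb upstream, an interval that covers the 3.99% of all single grid bins (740 of 18541).

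CpG-rich promoters made up most of the promoters in boundary bins. A promoter was called CpG-rich where any 500-base window between 900 bases before and 400 bases after the TSS had over 55% GC and an observed-to-expected CG ratio over 0.75. By that rule 532 of the 839 genes (63.4%, 60.0 to 66.7%) had a CpG-rich promoter, against 43.6% of all 21755 genes. Seen from the promoters, 5.60% of CpG-rich ones lay in boundary bins (532 of 9494, 5.15 to 6.09%), 3.36% of intermediate ones (147 of 4381, 2.84 to 3.93%) and 2.03% of CpG-poor ones (160 of 7880, 1.73 to 2.37%). The background over all protein-coding genes was 3.86%. Without olfactory and vomeronasal receptor genes the share of CpG-poor promoters was 2.08%. Median strength was 0.701 (0.653 to 0.760) for genes with CpG-rich promoters and 0.619 (0.519 to 0.673) for CpG-poor ones. The bins themselves had a median GC content of 47.2%, close to the 46.9% of all TSS-holding grid bins, and their soft-masked repeat share was 21.9% against 21.4%.

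Of 9 short promoter motifs, the ETS core and the NRF1 motif had intervals above the shares of all promoters also among CpG-rich promoters alone. In the 300 bases from 250 before to 50 after the TSS, the ETS core CCGGAAG lay in 18.4% of the 839 promoters (15.8 to 21.1%) and in 10.9% of all promoters. Among CpG-rich promoters alone it lay in 26.1% (139 of 532, 22.4 to 30.1%) against 19.1%. The NRF1 motif lay in 12.04% against 6.04% of all, and in 17.7% (14.5 to 21.2%) against 12.5% of CpG-rich ones. The YY1 motif AANATGGCG was found in 5.24% against 2.92% and the ZNF143 motif in 4.53% against 2.74%. Within CpG-rich promoters their intervals, 5.10 to 9.67% and 3.84 to 7.95%, covered the shares of all such promoters (5.27% and 4.00%). The GC box GGGCGG lay in 55.3% of promoters in boundary bins and in 43.4% of all, but in 70.9% against 72.5% of CpG-rich ones. CCAAT lay in 39.3% and 38.9%. The E-box CACGTG lay in 9.89% against 7.81% of all and in 11.8% against 11.3% of CpG-rich promoters. The cAMP response element TGACGTCA lay in 3.69% against 2.45%, and in 4.70% (3.06 to 6.86%) against 3.92% of CpG-rich ones. TATAAA lay in 9.18% (7.31 to 11.3%) against 12.7% of all, in 6.99% of promoters in strong bins and in 13.2% (9.57 to 17.6%) of those in weak ones. Among CpG-rich promoters alone TATAAA lay in 5.45% (3.68 to 7.74%) against 5.74%. Both strands were searched, and matches to different motifs may overlap each other. Among close opposite-strand pairs the ETS core lay in 27.9% of the 154 promoters in boundary bins (21.0 to 35.7%) and in 24.8% of the 2116 in all such pairs. These 154 promoters are the partners of 77 bins. The windows of close partners can overlap, so the same match can count for both genes, here and in the shares above. All these intervals treat promoters as independent.

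Among gene classes, cytosolic ribosomal protein genes had the largest share of TSSs in boundary bins. They had 13 of 85 (15.3%, 8.40 to 24.7%), in 13 separate bins of which 10 were strong, with a median strength of 1.03. Read against the 3.86% of all protein-coding genes, the lower bound of the interval lay above that background. Rps24 (1.73), Rps3 (1.68), Rplp1 (1.60), Rpl13 (1.37), Rpl17 (1.35), Rpl35 (1.07) and Rpl9 (1.03) lay at scores above 1. Rpl37a (0.572) and Rpl27 (0.514) were also strong, and Rps27rt (0.403), Rps6 (0.325) and Rps13 (0.305) were weak. With RefSeq starts in the same bin required, 12 of 79 remained (15.2%). An excess of this family near boundaries was known from earlier results on these data, so the count is no independent support for it.

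Chaperone genes had 12 of 89 TSSs in boundary bins (13.5%, 7.17 to 22.4%), 9 of them strong, with a median strength of 0.918. Dnajb12, a co-chaperone of the endoplasmic reticulum, had the strongest (1.80), followed by Hspa8, the constitutive Hsp70 of the cytosol (1.33), which in neurons uncoats clathrin vesicles. Most of the class were genes of J-domain co-chaperones, among them Dnajc27 (1.18), Dnajc8 (1.08), Dnajc1 (1.04) and Dnajc11 (0.953). The cytosolic Hsp90 genes Hsp90aa1 (0.460) and Hsp90ab1 (0.291) lay at weak boundaries. Hsp90aa1 has no RefSeq start in its bin. Both classes had intervals wholly above the background, as did subunits of RNA polymerases, general factors and Mediator (9 of 104, 8.65%, 4.03 to 15.8%). Of that last list 85.6% had a CpG-rich promoter, and its interval covers the 5.60% of all CpG-rich promoters that lay in boundary bins. In the latter class Polr3a (1.73) was followed by Med31 (0.976), and Polr3c (0.254), another RNA polymerase III subunit gene, lay at a weak boundary. No class was tested, and the classes are many, so a single interval above the background is weak ground for singling one out.

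Other classes of basic functions had larger shares than the background but intervals that reached it. Most genes of these classes have CpG-rich promoters, of which 5.60% lay in boundary bins. Each of their intervals covers that share too, and the shares of vesicle traffic genes and ubiquitin enzymes lay below it. Respiratory chain and assembly genes had 8 of 95 (8.42%, 3.71 to 15.9%), led by Ndufb10 of complex I (1.44) and Atp5a1 of the ATP synthase (1.21). Genes of translation factors and their binding proteins had 6 of 70 (8.57%, 3.21 to 17.7%), led by Eif4a3 (1.06) and Eif4ebp2 (1.04). Splicing factors had 5 of 61 (8.20%, 2.72 to 18.1%), led by Snrpb2 (1.87) and Srsf7 (1.33). Mitochondrial ribosomal protein genes had 5 of 78 (6.41%, 2.11 to 14.3%), of which Mrps10 (0.822) was strong and Mrpl2 (0.410), Mrpl10, Mrpl35 and Mrpl38 were weak. RNA helicases had 3 of 52 (5.77%), led by Ddx47 (1.23) and Ddx55 (0.702), vesicle traffic genes 8 of 168 (4.76%), led by Vps8 (2.02) and Sec13 (1.38), and ubiquitin enzymes 5 of 101 (4.95%), led by Usp5 (0.925) and Usp35 (0.830). Proteasome subunits, which share the CpG-rich promoters of these classes (64.1% of the list), had 0 of 39, an interval up to 9.03%. The aminoacyl-tRNA synthetases had 2 of 34, Mars2 (0.558) and Mars (0.535), and nucleoporins 1 of 24, Nup160 (1.40). No RefSeq start under the symbol Mars was matched in its bin, which a different symbol there would also give.

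**Figure D4:**
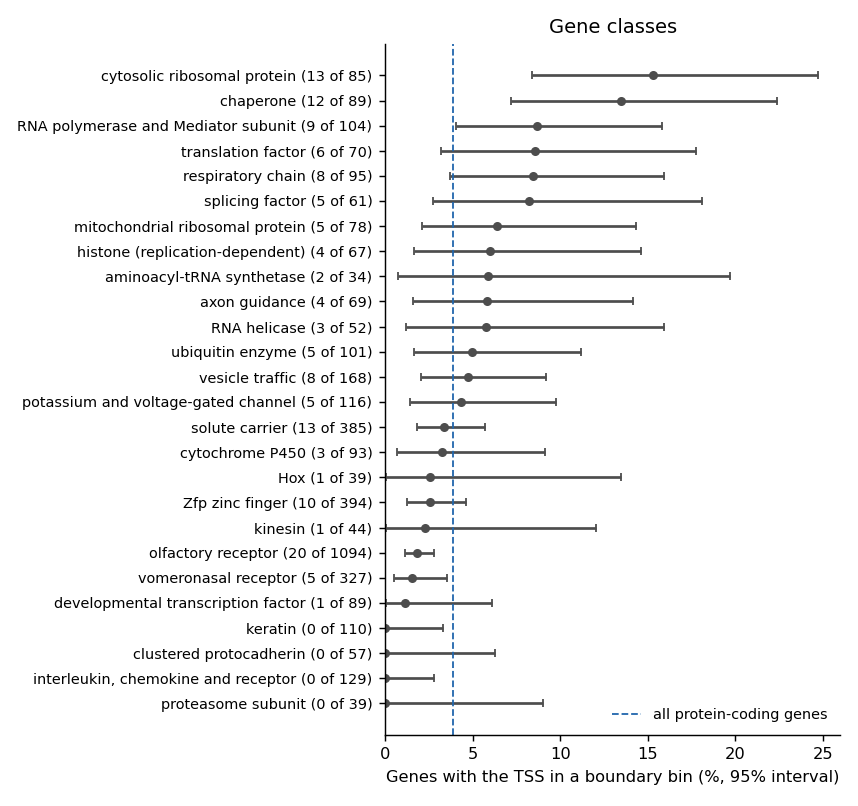
Percent of the genes of each class with 30 or more members whose TSS lies in a boundary bin, with exact 95% binomial intervals and, in brackets, genes in boundary bins of genes in the class. The dashed line is the 3.86% of all protein-coding genes. Cytosolic ribosomal protein genes are at 15.3% and olfactory receptor genes at 1.83%.

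Other classes had shares below the background, though the Zfp and clustered protocadherin intervals reached it. Olfactory receptor genes had 20 of 1094 TSSs in boundary bins (1.83%, 1.12 to 2.81%), in 19 bins. This interval covers the 2.08% of CpG-poor promoters outside the receptor genes, as does that of the vomeronasal receptor genes below. Of the 20 genes 8 lay in strong bins, and the median strength over genes was 0.372. Above Olfr470 (1.87), Olfr998 (1.51) and Olfr1359 (1.19) stood only Olfr544 and Olfr279, both among the 10 strongest bins. Of the 20 genes RefSeq placed 8 starts in the same bin, and over the receptor genes whose 2 annotations share a bin the count was 8 of 531 (1.51%). Vomeronasal receptor genes had 5 of 327 (1.53%, 0.498 to 3.53%), all weak and led by Vmn2r75 (0.424) and Vmn1r84 (0.320). The Zfp zinc finger genes had 10 of 394 (2.54%, 1.22 to 4.62%), 3 of them strong. Keratin and keratin-associated genes had 0 of 110 (up to 3.298%), clustered protocadherins 0 of 57 (up to 6.27%) and interleukins, chemokines and their receptors 0 of 129 (up to 2.82%). CpG-rich promoters were found in 0% of olfactory receptor, 0.909% of keratin, 7.02% of clustered protocadherin and 12.4% of interleukin and chemokine genes, but in 46.2% of Zfp genes, against 43.6% of all genes.

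Of developmental transcription factor genes 61.8% had a CpG-rich promoter, and 1 of 89 lay in a boundary bin: Sox11, at a weak boundary (0.235). That share of 1.12% has an interval up to 6.10%, which covers the background and the 5.60% of CpG-rich promoters. Of Hox genes 1 of 39 did, Hoxd10 (1.08), without a RefSeq start there. Replication-dependent histone genes had 4 of 67 in 2 bins. Solute carriers (13 of 385, 3.38%) and potassium and voltage-gated channels (5 of 116, 4.31%) were near the background. The former were led by Slc25a51 (1.21) and Slc39a7 (1.07) and included Slc17a8, a vesicular glutamate transporter gene (0.659). The latter were led by Kcnma1, the large-conductance calcium-activated channel (1.12), and Kcne2 (0.877). Axon guidance genes had 4 of 69 (5.80%, 1.60 to 14.2%): Plxna1 (0.837), Efna5 (0.617), Nrp1 (0.601) and Sema3a (0.381). Cytochrome P450 genes had 3 of 93, led by Cyp26b1 (0.594) and Cyp2r1 (0.283), and kinesins 1 of 44, Kif26a (0.755). Neither Sema3a nor Kif26a has a RefSeq start in its bin.

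Genes that mark the neurons and their neighbours were looked up by position, since a boundary list measures no expression and cannot show the purity of the sort. Of 28 genes of mature olfactory neurons 3 had the TSS in a boundary bin (10.7%, 2.27 to 28.2%). They were Gnal, the olfactory G protein subunit (1.78), Umodl1 (0.696) and Gng13, its gamma partner (0.444). The share over all protein-coding genes was 3.86%, which lies inside the interval of this list and of each list below. Sox11 was 1 of 16 immature neuron genes, Top2a (0.298) 1 of 12 progenitor genes and Cd68 (0.892), of macrophages, 1 of 15 immune and vascular genes. None of 10 horizontal basal cell genes and none of 13 sustentacular and gland genes was in a bin. Among 19 genes of the CTCF and cohesin machinery Yy1 alone was (0.467). Of 24 Ldb1 partners and regulators of receptor choice, Ssbp2 (0.451) and Ssbp4 (0.254) were, both cofactors that bind Ldb1 and both at weak boundaries. The TSSs of Ldb1, Ebf1, Omp and Lhx2 lay outside boundary bins, 14.8, 12.3, 49.5 and 90.7 kb from the nearest.

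CTCF matches lay at a share of these bins close to that of all boundaries. The CTCF consensus, searched on both strands of the genome, lay within 10 kb of 193 of the 746 bins (25.9%, 22.8 to 29.2%), against 24.4% of all boundaries. It lay in the bin itself in 51 (6.84%, 5.13 to 8.89%), against 6.28% of all. Among all TSS-holding grid bins the shares were 17.95% and 4.15%. Strength with a match was much the same with and without a TSS. The median strength was 0.721 (0.635 to 0.801) for the 193 bins with both and 0.727 (0.699 to 0.757) for the 1666 boundaries with a match but no TSS in the bin. It was 0.649 (0.609 to 0.682) for the 553 bins with the TSS and no match, and 0.455 (0.441 to 0.470) for the 5198 boundaries with neither. The search counted only matches to a consensus of 12 bases, 12728 in all. Binding of CTCF was not measured, so a boundary without a match is not shown to lack CTCF.

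Matches in some of the strongest such bins are printed because their strand carries the orientation of the site. Each is given 5′ to 3′ on the strand of its match, with the 12 matched bases in capitals and 9 bases on either side.
Fadd, chr7:144583815-144583844, reverse: cagcagagaCCAGCAGAGGGCccctgattc
Rbm45, chr2:76367335-76367364, forward: aacggtttcCCACTAGATGGCgctggtgcg
AL731706.2, chr2:136887035-136887064, reverse: cccagaatgCCAGCAGATGGCgcccaggaa
Tmprss5, chr9:49083297-49083326, reverse: gccagtgctCCAGTAGAGGGCgagccagga
Ube4a, chr9:44969605-44969634, forward: acaattttcCCAGTAGGGGGCactctgcaa
The matches upstream of Fadd, a death receptor adaptor gene (strength 2.40), Rbm45 (1.64) and AL731706.2 (1.32) pointed along transcription, and that of Ube4a (1.16) against it. The match of Tmprss5 (1.22) lay 2051 bases into the gene and pointed against transcription. For AL731706.2 and Tmprss5 no RefSeq start was matched in the bin by symbol, which a differing symbol alone would also give.

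Around the 654 single-TSS bins the matches tended to point away from the TSS on both sides. Within 20 kb upstream 115 of 171 matches pointed against transcription and 56 along it (32.7% along, 25.8 to 40.3%). Within 20 kb downstream 103 of 164 pointed along transcription (62.8%, 54.9 to 70.2%). At single-TSS grid bins that were no boundary, 51.9% of 3188 upstream and 48.6% of 2759 downstream matches pointed along transcription. In the 2.5 kb next to the TSS the directions were equal, with 13 matches each way upstream and 10 each way downstream. At strong bins 65.0% of downstream matches pointed along transcription (55.8 to 73.5%), and at weak bins 56.8% did (41.03 to 71.7%), intervals that overlap. Matches were also denser than at other promoters, with 26.1 upstream and 25.1 downstream per 100 bins against 17.8 and 15.4.

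**Figure D5:**
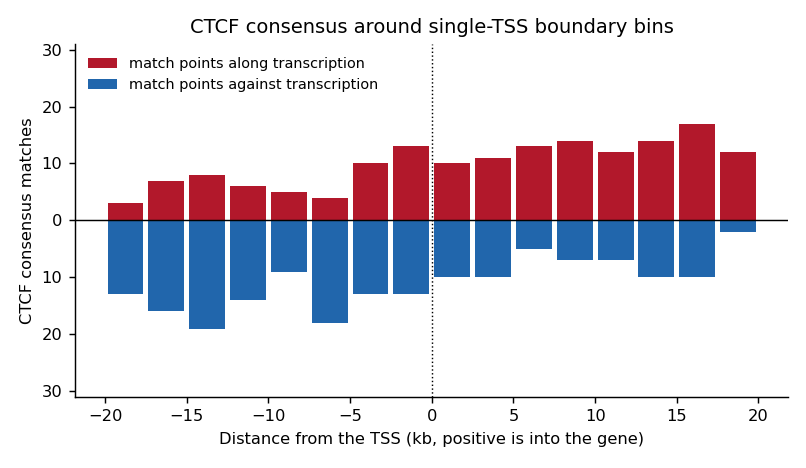
CTCF consensus matches within 20 kb of the TSS of the 654 single-TSS boundary bins, in steps of 2.5 kb (positive distances are into the gene). Bars above 0 count matches pointing along transcription and bars below 0 those pointing against it. Upstream 115 of 171 point against transcription and downstream 103 of 164 along it.

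On the 2 sides of these promoters the next boundary lay at similar distances. For the 653 single-TSS bins with a boundary on both sides, the next one lay a median of 230 kb away on the gene side and 235 kb away on the upstream side. The gene side was longer in 332 and shorter in 314 (51.4% longer, 47.5 to 55.3%). Most genes ended before the next boundary. In 631 of 653 (96.6%, 94.9 to 97.9%) the gene did so, in 19 it reached 1 further boundary and in 3 it reached 2 or more. Those 3 were Dmd, the dystrophin gene (4 further boundaries), Slc14a2 and Myt1l, a neuronal transcription factor gene (2 each). In 12 the gene ended within 10 kb of the next boundary bin, and 36 genes lay wholly in their bin. The same counts were not made for other genes. Over the 839 genes the median length was 20.09 kb, far below the 230 kb to the next boundary on the gene side.

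Gene lengths were close to those of other genes. The median length was 20.09 kb for the 839 genes and 17.4 kb for all protein-coding genes, and 21.2 against 19.3 kb without receptor genes. The share in boundary bins was 3.34% for genes under 10 kb, between 4.11% and 4.20% for the 3 length classes from 10 to 300 kb, and 3.88% (2.45 to 5.82%) for the 567 genes of 300 kb or more. The 22 of these in boundary bins had a median strength of 0.381, with 7 strong, against 0.730 for the 257 genes under 10 kb. Dmd (2257 kb, strength 0.210), Kcnma1 (725 kb, 1.12) and Slc7a11, the cystine transporter gene (551 kb, 0.210), were the longest in boundary bins. RefSeq starts none of these 3 in the bin.

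The nearest other boundary lay a median of 180 kb from the 746 bins (interquartile range 145 to 235 kb), as it did for boundaries with a TSS within 10 kb, and 215 kb from boundaries with no TSS within 10 kb. It was 155 kb for the divergent bins. The share of boundaries with a TSS in the bin ranged over chromosomes from 5.90% on chromosome X (25 of 424) and 7.20% on chromosome 16 to 14.7% on chromosome 11 (62 of 421, 11.5 to 18.5%). Seen from the genes the range was from 2.82% of protein-coding genes on chromosome 7 to 5.44% on chromosome 12. Chromosome 7 holds many receptor genes. Starts of non-coding or pseudogene records lay in 100 of the 746 bins (13.4%, 11.04 to 16.1%), close to the 13.6% of all TSS-holding grid bins. Among them 10 held a small nucleolar RNA start (1.34%, 0.645 to 2.45%), against 0.447% of TSS-holding grid bins, and 12 a microRNA start (1.61% against 1.24%). Antisense RNA starts lay in 16 (2.14%, 1.23 to 3.46%) against 3.96%, and processed pseudogene starts in 6 (0.804%, 0.296 to 1.74%) against 1.34%.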

How the data were processed

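In situ Hi-C was run on 2 biological replicates of 1 group. According to the series design text, contacts of both were combined and boundaries called on the contact matrix, on GRCm38 per the submitters' processing notes. For the caller, its settings and the depth, nothing is stated in the sources used here. The authors deposited 5 kb bins, each with a class and a strength score, used only to describe, rank or split the bins of that list. TSSs and gene types came from GENCODE M21, sequence and a second set of gene starts from RefSeq (GRCm38.p6). By symbol and chromosome 805 of the 839 genes matched RefSeq, and 722 started in the same bin. Genes without a symbol match were counted as having no RefSeq start in the bin. Such a statement can therefore reflect a name and not a different start. Tools were Python 3.11.15 with scipy 1.17.1, pandas 2.3.3, numpy 2.4.6 and matplotlib 3.10.9, and the calculations were tested on simulated data. Members, gene lists and alternatives were chosen with earlier results of these data known. Named genes were those of the 10 strongest bins, the 3 strongest per arrangement, the 2 strongest per gene list, markers in bins, and extremes of strength, TSS number and length. Other named genes, the motifs, the RefSeq comparison and most printed sequences were chosen after the values were seen. Some genes that this rule names are not reported here.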

Additional observations from a re-analysis of the deposited data

How the results depend on the processing

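No paired analysis was possible because the list covers a single group. Leaving out a replicate was not possible either, since the deposited calls come from both combined. Of 63 alternative values (54 planned, 9 chosen after seeing the data), 50 lay within the 95% interval of the reported value. The share of boundaries holding a TSS (9.80%) was 11.9% in the strong class alone, 12.1% with the start of any protein-coding transcript, 23.5% with a TSS within 5 kb of the bin, 6.02% in the central 3 kb and 8.54% with RefSeq starts in the same bin. The share of genes in boundary bins (3.86%) was 2.501%, 4.72%, 10.1% and 2.34% under the first 4 of these. For single-TSS grid bins the share was 2.21% for strong boundaries and 2.99% with any transcript start, and for divergent bins 5.06% for strong boundaries. The CTCF consensus lay in the bin alone in 6.84%. These alternatives narrow or widen what is counted. Depth is unknown, so which weak boundaries more reads would add or remove cannot be said.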
